A study of Mus musculus with 6 samples.

Results

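A set of 10 genes of fibroblast growth factor (FGF) signalling were followed in the embryonic mouse retina: the ligands Fgf3, Fgf9 and Fgf15, the receptors Fgfr1, Fgfr2 and Fgfr3, the feedback inhibitors Spry1, Spry2 and Dusp6, and the ETS transcription factor Etv5. They were chosen by name, and each of the 10 matched 1 of the 55487 counted genes. All 10 passed the filter on low counts that 17275 genes passed. None of the 10 differed between the labelled genotypes by edgeR at an adjusted p of 0.05. Fgf3 came closest, at 75.9 ± 4.07 CPM (read counts scaled to a common library size; SD, n = 3) in the libraries labelled Foxp1 cKO against 61.3 ± 6.82 CPM (SD, n = 3) in those labelled control.

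The libraries are bulk RNA sequencing of retinas at embryonic day 16.5 from C57BL/6 mice. The 3 libraries labelled Foxp1 cKO are given the genotype Foxp1 fl/fl, Six3-Cre, in which Six3 sequence drives Cre in the developing eye field. The 3 labelled control are given as Foxp1 fl/fl. By these labels both groups carried the loxP-flanked alleles, and the Cre itself was present in 1 group alone. Whether each library has its labelled genotype is taken up below. All 6 were separate littermates. The series asks what the forkhead factor Foxp1 does to gene expression in the early retina.

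FGF ligands bind receptor tyrosine kinases together with heparan sulphate, and the activated receptor passes the signal through the Ras and MAP kinase chain to ETS factors. Sprouty proteins act on the chain between receptor and MAP kinase, and Dusp6 removes phosphate from the kinase ERK. Both are induced by the signal they limit, so their transcripts are commonly used as readouts of it. In the eye, FGF signals take part in setting the neural retina apart from the pigment epithelium, in starting retinal neurogenesis and in forming lens fibres.

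The targeted gene goes against the labels, and this bears on every direction given here. Foxp1 was at 50.8, 41.1 and 46.2 CPM for control 1, 2 and 3 as labelled, and at 72.4, 75.5 and 68.8 CPM for cKO 1, 2 and 3 (log2 fold change 0.65, edgeR adjusted p 4.63e-05). The labels do not say which exons are flanked by loxP sites, and the count covers the whole gene. Sex-linked genes matched the labelled sex in 4 of 6 libraries, and matched the labelled sex of the same-numbered library of the other group in 6 of 6. The authors' deposited table gives 9 of the 10 FGF genes the opposite sign. A DESeq2 fit with each library given the genotype and the sex label of its same-numbered counterpart, chosen after seeing the data, gave log2 fold changes that differed from that table by at most 0.000121 for the 10 genes. Over 21080 genes the median absolute difference was 0.00013. Groups and libraries are named as labelled throughout, and a positive fold change is higher in the cKO-labelled group.

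Promoter sequences were available from RefSeq (GRCm38.p6, the same assembly as mm10) for 8 of the 10 genes, in 10 windows reaching from 250 bases before to 50 bases after a transcription start. Of these, 3 are shown, each up to the first base of the window that GENCODE annotates as exon of the gene: Fgf3, because its transcript had the largest difference of the 10, and Dusp6 and Etv5, because they are the FGF-responsive genes whose windows hold a match to a forkhead motif. Capitals mark matches on either strand to a forkhead motif (TGTTTAC or its variants TGTTTAT, then TGTTTGC and lastly TGTTTGT) or to an ETS motif (CGGAAG). None of the matches overlap. The stretches lie at chr7:144838362-144838594 (Fgf3, plus strand), chr10:99262981-99263230 (Dusp6, plus strand) and chr16:22439720-22439820 (Etv5, minus strand). The last 2 lie just upstream of the gene models, and that of Fgf3 lies in an intron of a longer GENCODE transcript that starts at 144838083.
Fgf3: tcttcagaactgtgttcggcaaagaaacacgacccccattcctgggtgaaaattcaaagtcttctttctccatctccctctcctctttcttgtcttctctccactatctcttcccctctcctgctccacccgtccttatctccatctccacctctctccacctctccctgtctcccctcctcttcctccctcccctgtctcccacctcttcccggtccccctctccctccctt
Dusp6: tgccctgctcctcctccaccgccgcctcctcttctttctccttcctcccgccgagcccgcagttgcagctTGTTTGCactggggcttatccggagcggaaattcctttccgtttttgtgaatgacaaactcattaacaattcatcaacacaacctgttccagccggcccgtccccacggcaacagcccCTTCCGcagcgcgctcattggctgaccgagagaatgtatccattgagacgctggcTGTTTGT
Etv5: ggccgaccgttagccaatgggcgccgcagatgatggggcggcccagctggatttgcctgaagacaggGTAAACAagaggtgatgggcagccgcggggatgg
The Dusp6 stretch has 2 forkhead matches and 1 ETS match, and the Etv5 stretch has 1 forkhead match. Another Etv5 window, not shown, has no match to either motif. The Fgf3 stretch has neither and stands in lower case throughout. Among all 32851 RefSeq windows of 300 bases, 17.7% hold a forkhead match and 16.9% an ETS match, against 2 and 1 of the 10 windows here. A match is a description of the letters and shows no binding.

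Per kilobase of exon, Fgf15 was by far the most abundant of the 10, at 257 to 298 CPM per kilobase over the 6 libraries. Etv5 (46.4 to 51.9), Spry2 (33.5 to 36.3), Dusp6 (29.2 to 35.2) and Fgf3 (23.0 to 34.0) followed on the same scale. The ranges of Spry2, Dusp6 and Fgf3 overlapped each other in turn, so their order is not settled. Fgf9 lay below them at 16.7 to 17.99, then Fgfr1 at 8.35 to 10.2 and Spry1 at 6.39 to 8.46 CPM per kilobase, which overlapped slightly. Fgfr2 (1.17 to 1.65) and Fgfr3 (0.579 to 0.935) were the lowest and did not overlap. Exon length is the union of all annotated exons, so a gene with many alternative exons is placed too low.

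**Figure D1:**
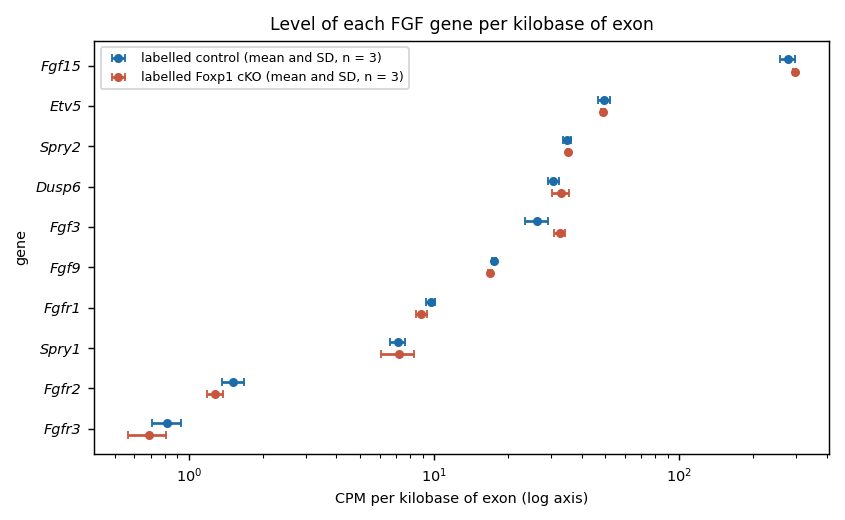
Mean CPM per kilobase of exon (log axis) for each of the 10 genes in the libraries labelled control (blue) and labelled Foxp1 cKO (red), with bars for the SD (n = 3 each). Fgf15 stands apart at 257 to 298, and Fgfr2 and Fgfr3 lie at the bottom.

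Of the ligands Fgf3, Fgf9 and Fgf15, Fgf3 had the largest difference. Fgf3 (ENSMUSG00000031074, chromosome 7, 144838083 to 144844436, plus strand, mm10) encodes a secreted ligand known from inner ear induction and expressed in early retina. It was at 64.2, 53.5 and 66.3 CPM in control-labelled animals 1, 2 and 3, and at 79.2, 77.1 and 71.3 CPM in cKO-labelled animals 1, 2 and 3. All 3 cKO-labelled retinas lay above all 3 labelled control, by 5.05 CPM at the nearest pair, and control 2 was the lowest of the 6. The difference was 23.7% (log2 fold change 0.31, standard error 0.07, 95% interval 0.15 to 0.46). Its unadjusted p of 0.000942 became an edgeR adjusted p of 0.0653. In the authors' deposited table, Fgf3 has a log2 fold change of -0.27 with an adjusted p of 0.0269, so it passes there with the opposite sign. That fold change is reproduced by the fit with exchanged genotype and sex labels described above. Fgf3 passed in 6 of 18 alternative fits, with adjusted p between 8.49e-06 and 0.714, and its log2 fold change stayed between 0.21 and 0.37. The pass depended on the tool, the filter on low counts, the covariates and single libraries. DESeq2 gave an adjusted p of 0.00589. The edgeR adjusted p was 8.49e-06 with no filter, 0.0474 with replicate number as a block and 0.00696 without control 3, whereas leaving out cKO 2 gave 0.365. The remaining passes used the labelled sexes exchanged between groups as a covariate, chosen after seeing the data (adjusted p 0.0305 in edgeR, 0.0249 in DESeq2).

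Fgf15, the mouse counterpart of human FGF19 and a gene of retinal progenitors, showed a small difference that did not pass. It lies on chromosome 7 as well (ENSMUSG00000031073, 144896531 to 144900953, plus strand), and had 19529 to 23232 counts per library, the deepest coverage of the 10. Its levels were 858, 787 and 899 CPM in control 1 to 3 and 909, 911 and 888 CPM in cKO 1 to 3. Control 3 fell among the cKO values and control 2 was again the lowest. The log2 fold change was 0.09 (standard error 0.05, 95% interval -0.02 to 0.20, edgeR adjusted p 0.428). Among the cKO-labelled retinas the SD was 12.6 CPM, against 56.7 CPM among the controls.

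Fgf9, a ligand of retinal progenitors and neurons, was nearly constant. It lies at 58070547 to 58112720 on chromosome 14 (ENSMUSG00000021974, plus strand). It was at 83.6, 80.4 and 81.1 CPM in the controls and at 80.1, 77.7 and 78.3 CPM in the cKO-labelled retinas. The groups did not overlap, but the highest cKO value and the lowest control value were 0.312 CPM apart. The log2 fold change was -0.05 (95% interval -0.15 to 0.04, edgeR adjusted p 0.603), so a change of the size seen for Fgf3 lies outside the interval. With Fgf15 and Fgf3, it made up nearly all of the secreted ligand signal: of the summed CPM per kilobase of 18 secreted FGF genes, Fgf15 took 84.2% to 85.4%, Fgf3 took 7.62% to 9.63% and Fgf9 took 4.75% to 5.72% in each library. The share of Fgf3 was 8.34%, 7.62% and 8.27% in the controls and 9.63%, 9.41% and 8.95% in the cKO-labelled retinas.

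**Figure D2:**
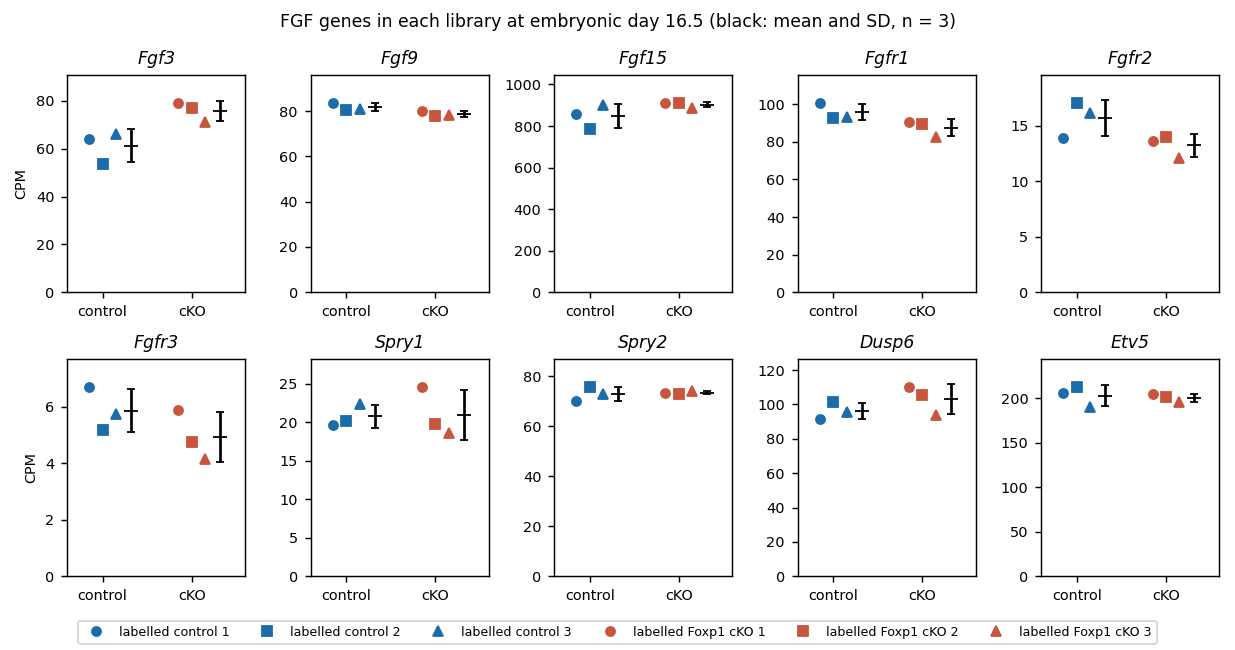
CPM of each gene in each library, with circles, squares and triangles for replicates 1, 2 and 3, blue for labelled control and red for labelled Foxp1 cKO; black bars show the mean and SD (n = 3). The groups are apart for Fgf3, with 53.5 to 66.3 against 71.3 to 79.2 CPM, and by small margins for Fgf9 and Fgfr1.

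The 3 receptors were all lower in the cKO-labelled retinas, and none passed. Fgfr1, the main FGF receptor of the retina by level, lies on chromosome 8 at 25513654 to 25575718 (ENSMUSG00000031565, plus strand). It was at 100.7, 93.0 and 93.5 CPM in control 1 to 3 and at 90.6, 89.7 and 82.5 CPM in cKO 1 to 3. The groups did not overlap, and the log2 fold change was -0.13 (standard error 0.05, 95% interval -0.23 to -0.03, edgeR adjusted p 0.186). Fgfr1 took 74.7% to 77.5% of the summed CPM per kilobase of Fgfr1 to Fgfr4 in each library, with no separation of the groups.

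Fgfr2, a receptor of optic vesicle and lens, was at 13.9, 17.0 and 16.1 CPM in the controls and at 13.6, 14.0 and 12.1 CPM in the cKO-labelled retinas. Control 1 fell among the cKO values. The log2 fold change was -0.25 (standard error 0.10, 95% interval -0.45 to -0.05, edgeR adjusted p 0.181). Its gene model (ENSMUSG00000030849, chromosome 7, 130162451 to 133123350, minus strand) is unusually long in this annotation and overlaps 69 other gene models, 36 of them on the same strand. Its exon length and counts are uncertain for that reason.

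Fgfr3, which in the retina is known from progenitors and later from glia, was the least covered of the 10, with 105 to 160 counts per library. It lies on chromosome 5 at 33721674 to 33737068 (ENSMUSG00000054252, plus strand). Its levels were 6.69, 5.16 and 5.73 CPM in the controls and 5.87, 4.74 and 4.15 CPM in the cKO-labelled retinas. The groups overlapped, and the log2 fold change of -0.25 had the widest interval of the 10 (-0.57 to 0.07, edgeR adjusted p 0.44). The authors' deposited table lists Fgfr1 at 0.17 (adjusted p 0.0651), Fgfr2 at 0.24 and Fgfr3 at 0.36, the latter 2 with no adjusted p.

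The feedback inhibitors showed no shared shift. Spry1, a Sprouty protein, lies on chromosome 3 at 37639947 to 37644598 (ENSMUSG00000037211, plus strand). It was at 19.7, 20.2 and 22.4 CPM in the controls and at 24.6, 19.7 and 18.6 CPM in the cKO-labelled retinas, so that cKO 1 was the highest and cKO 3 the lowest of the 6. The log2 fold change was 0.01 (95% interval -0.18 to 0.21, edgeR adjusted p 0.964), and its sign changed with 6 of 18 alternatives. The authors' deposited table also has Spry1 at 0.01, which made it the 1 gene of the 10 with the same sign there.

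Spry2, the more abundant of these 2 Sprouty genes, varied little. It lies on chromosome 14 at 105891947 to 105896819 (ENSMUSG00000022114, minus strand). Its levels were 70.0, 75.7 and 72.9 CPM in the controls and 73.3, 72.8 and 74.2 CPM in the cKO-labelled retinas, so the cKO values fell within the range of the controls. The log2 fold change was 0.01 with a 95% interval of -0.09 to 0.11 (edgeR adjusted p 0.946).

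Dusp6, the ERK phosphatase, lies on chromosome 10 at 99263231 to 99267489 (ENSMUSG00000019960, plus strand). It was at 91.4, 101.2 and 95.7 CPM in the controls and at 110.1, 105.5 and 93.7 CPM in the cKO-labelled retinas. The 2 highest values were cKO 1 and cKO 2, while cKO 3 lay among the controls. The log2 fold change was 0.10 (standard error 0.06, 95% interval -0.02 to 0.22, edgeR adjusted p 0.392). Etv5, an ETS factor that is a transcriptional target and effector of FGF signalling, lies on chromosome 16 at 22381309 to 22439719 (ENSMUSG00000013089, minus strand). Its levels were 206, 213 and 191 CPM in the controls and 204, 202 and 196 CPM in the cKO-labelled retinas. All cKO values fell within the control range, and the log2 fold change was -0.02 (95% interval -0.13 to 0.09, edgeR adjusted p 0.917). For Spry1, Spry2, Dusp6 and Etv5 together, the highest upper bound was 0.22 (Dusp6) and the lowest lower bound -0.18 (Spry1), so larger differences on the log2 scale lie outside the intervals of all 4.

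**Figure D3:**
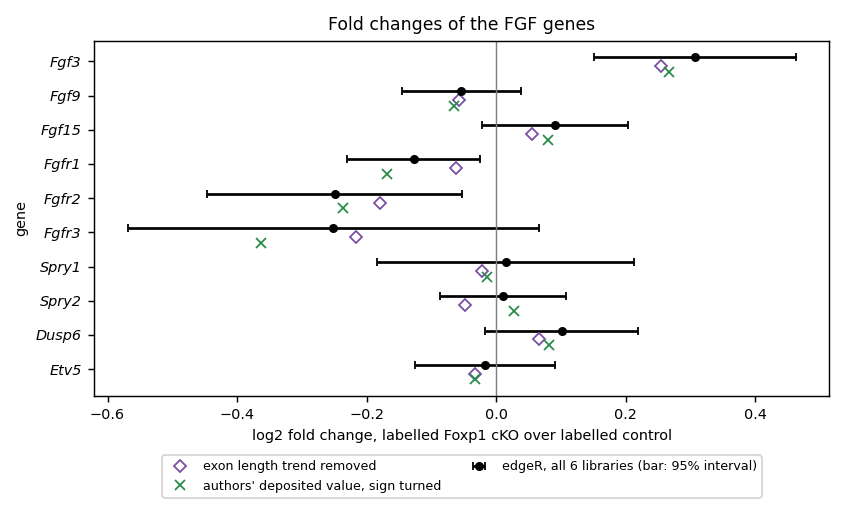
Log2 fold change of each gene, labelled Foxp1 cKO over labelled control, with its 95% interval from edgeR (black), the value after removal of the exon length trend (open diamonds) and the authors' deposited value with its sign turned (green crosses). The intervals of Fgf3, Fgfr1 and Fgfr2 leave out 0, and the other 7 include it.

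Counted over the 10 genes, 5 were higher and 5 lower, with a median log2 fold change of -0.00 beside a median of 0.00 over all genes tested. No gene passed the edgeR adjusted p of 0.05, which 0.781% of all genes tested did. At an unadjusted p under 0.05 there were 3 (Fgf3, Fgfr1 and Fgfr2), where all genes tested gave 16.5%. Groups did not overlap for 3 of the 10, where all genes tested gave 20.1%: Fgf3 was higher, beside 10.8% of all genes, and Fgf9 and Fgfr1 were lower, beside 9.3%. DESeq2 called Fgf3 alone, and called 10.5% of the genes for which it gave an adjusted p. The authors' deposited table calls Fgf3 alone among the 7 FGF genes with an adjusted p, beside 8.97% of its genes. No library was high or low for all of the 10: cKO 3 was the lowest library for 4 genes, and control 1, control 2 and cKO 1 were each the highest for 3.

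Fold changes in these libraries varied with exon length. With the genes split into 10 equal groups by exon length, the median log2 fold change was 0.08 in group 2 and -0.09 in group 10, the longest. Fgfr1 and Fgfr2, with 9875 and 10328 bases of exon, lie in group 10, and Fgfr3, with 7158 bases, lies in group 9, where the median was -0.05. Fgf3, with 2326 bases, lies in group 3, with a median of 0.05. After removal of the trend, Fgfr1 became -0.06 (edgeR adjusted p 0.618), that of Fgfr2 -0.18 (0.449) and that of Fgfr3 -0.22 (0.585). Fgf3 became 0.26 (edgeR adjusted p 0.148), and Dusp6 and Fgf15 became 0.07 and 0.06. The sign of Spry2 turned, from 0.01 to -0.05, as did that of Spry1, from 0.01 to -0.02.

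**Figure D4:**
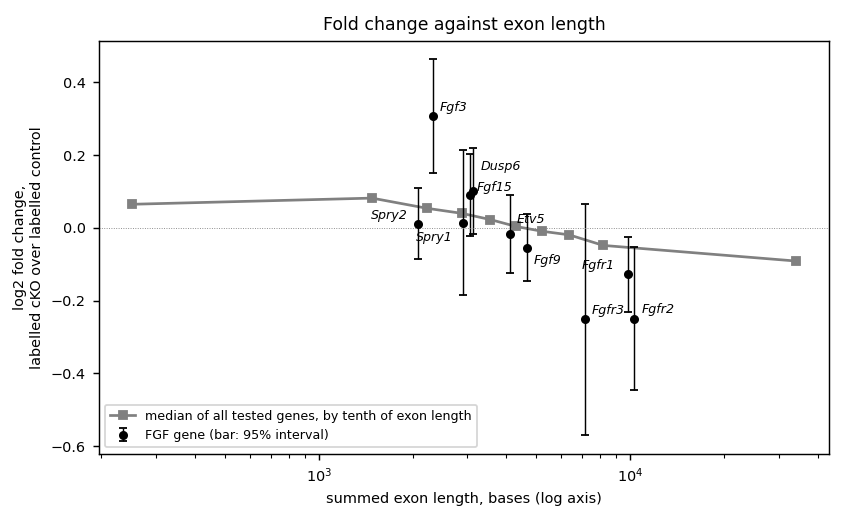
Log2 fold change (labelled Foxp1 cKO over labelled control) against summed exon length (log axis) for the 10 genes, with 95% intervals, and the median of all tested genes in each of 10 exon length groups (grey squares, at the geometric mean of the group's shortest and longest gene). The medians run from 0.08 for short genes to -0.09 for the longest, and Fgf3 lies above and the 3 receptors below the medians of their groups.

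In whole-tissue libraries, fewer cells of a type and less RNA per cell cannot be told apart. Summed CPM of 7 retinal progenitor markers (Rax, Pax6, Sox2, Lhx2, Six6, Hes1 and Ccnd1) ranged from 6433 to 6645 in the controls and from 6443 to 6606 in the cKO-labelled retinas, with Ccnd1 giving most of each sum and none of the 7 under 1 CPM throughout. Lens, which also uses these receptors and feedback genes, was present in uneven amounts: the sum of 9 lens markers (Crygs and Lim2 under 1 CPM throughout) was 53.3, 211 and 772 CPM in control 1 to 3 and 49.0, 15.6 and 210 CPM in cKO 1 to 3. Its part in the FGF values was not tested. Pigment epithelium markers summed to 54.9 to 92.4 CPM and 29.3 to 91.3 CPM, with Rpe65 under 1 CPM throughout, and ciliary margin markers to 36.2 to 46.6 and 27.7 to 44.8 CPM. Periocular mesenchyme markers summed to 39.0 to 91.4 and 76.5 to 151 CPM, and endothelial markers to 313 to 337 and 284 to 292 CPM, with Cdh5 and Tek under 1 CPM in every library. Nearly all of that sum is Kdr, which was lower (log2 fold change -0.17, edgeR adjusted p 0.0911), while the other 2 tested endothelial markers were higher. Ganglion cell markers summed to 1431 to 1521 CPM in the controls and 1509 to 1615 CPM in cKO-labelled retinas, with 6 of 6 higher. Photoreceptor precursor markers summed to 711 to 740 and 683 to 718 CPM. All 7 tested lens markers, all 5 of pigment epithelium and all 4 of microglia had negative fold changes. Their part in the results was not tested either. No marker of these lists passed the edgeR adjusted p of 0.05.

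Of 76 other genes of the pathway, in 5 lists, 63 could be tested, and none passed the edgeR adjusted p of 0.05. Higher in the cKO-labelled retinas were 21 and lower 42, with a median log2 fold change of -0.024. Over all genes tested, 8661 were higher and 8614 lower. With the exon length trend removed, the median of the 63 was -0.016. At an unadjusted p under 0.05 there were 8 of the 63, beside 16.5% of all genes tested. Without overlap of the groups, 11 of the 63 were lower and 1 higher, beside 9.3% and 10.8% of all genes tested. DESeq2 called 2 of them, Nf1 and Cbl, beside 10.5% of all genes with an adjusted p. The authors' deposited table calls 3 of the 44 with an adjusted p there, Nf1, Cbl and Ndst1, beside 8.97% of its genes.

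Among 19 other ligand genes, 8 were tested, and 4 were higher and 4 lower. The most abundant per kilobase were Fgf13, Fgf12 and Fgf11, which encode intracellular proteins that bind sodium channels and are not secreted. Fgf13 was at 51.5 ± 1.54 CPM in the controls and 52.3 ± 1.18 CPM in the cKO-labelled retinas (SD, n = 3 each). Fgf8, a secreted ligand of the early optic stalk, was at 2.37 ± 0.347 and 2.29 ± 0.346 CPM (SD, n = 3 each). Fgf20, a secreted ligand close to Fgf9 in sequence and named after its values were seen, was under 1 CPM in every library, at 0.80 ± 0.039 and 0.573 ± 0.051 CPM (SD, n = 3 each), with no overlap (log2 fold change -0.48, standard error 0.36, edgeR adjusted p 0.553). Of 7 other receptors and co-receptors, 5 were tested, 2 higher and 3 lower. The higher ones, named after their values were seen, were Fgfr4, the remaining FGF receptor with a kinase domain, at 2.58 ± 0.282 and 2.93 ± 0.417 CPM (SD, n = 3 each; edgeR adjusted p 0.696), and Flrt3, a relative of Flrt1, at 16.6 ± 0.569 and 18.6 ± 0.657 CPM (SD, n = 3 each; edgeR adjusted p 0.301), whose groups did not overlap. Fgfrl1, a receptor without a kinase domain, was at a log2 fold change of -0.05 and Flrt2 at -0.02. Flrt1, a membrane protein with leucine-rich repeats that binds FGF receptors, was at -0.19 on the log2 scale (edgeR adjusted p 0.136). Its levels were 48.0 ± 4.01 CPM in the controls and 42.0 ± 1.87 CPM in the cKO-labelled retinas (SD, n = 3 each). Its groups did not overlap, and the nearest values were 0.191 CPM apart.

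In the signal relay from adaptor to MAP kinase, 19 of 19 genes were tested, 6 were higher and 13 lower, and all lay between -0.12 and 0.11 on the log2 scale. Mapk3, which encodes the kinase ERK1, was at 103.3 ± 5.39 CPM and 103.3 ± 3.23 CPM (SD, n = 3 each). The adaptor Grb2 had a fold change of 0.11 on the log2 scale (edgeR adjusted p 0.237) and Nras at 0.06 (edgeR adjusted p 0.6). Groups did not overlap for 3 of the 19, all lower, beside 9.3% of all genes tested that were lower without overlap. Named after their values were seen, they were the kinase Braf at -0.12, the phosphatase Ptpn11 at -0.08 and the Ras activator Sos1 at -0.09 on the log2 scale. With the exon length trend removed, Braf was at -0.02, Ptpn11 at -0.04 and Sos1 at -0.02.

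Of 19 other feedback inhibitors and targets, 19 were tested, 5 higher and 14 lower. Ccnd1, the cyclin of retinal progenitors, was at 4505 ± 110.3 CPM and 4467 ± 58.3 CPM (SD, n = 3 each), Spred1 at a log2 fold change of -0.02 and Dusp4 at 0.01. The lowest p-values in the list belonged to 2 inhibitors of the chain that were named after their values were seen. Nf1, which encodes the Ras inhibitor neurofibromin, was at 212, 205 and 178 CPM in control 1 to 3 and at 168, 171 and 168 CPM in cKO 1 to 3. Its groups did not overlap, and control 3 was nearest to the cKO values (log2 fold change -0.23, standard error 0.06, edgeR adjusted p 0.0546). Cbl, a ubiquitin ligase that takes activated receptors out of service, was at 141, 135 and 117 CPM and at 117, 109 and 104 CPM, with control 3 below cKO 1 (log2 fold change -0.25, standard error 0.07, edgeR adjusted p 0.0811). Both passed with no filter on low counts (adjusted p 0.00192 and 0.000225), without control 3 (0.00173 and 0.00143) and with exchanged sexes (0.0124 and 0.00764) in edgeR, and Cbl also without cKO 1 (0.0359). Both have a large summed exon length, 15850 and 12345 bases. With the length trend removed Nf1 was at -0.11 (edgeR adjusted p 0.331) and Cbl at -0.16 (0.186). The authors' deposited table has Nf1 at 0.26 (adjusted p 0.00454) and Cbl at 0.30 (adjusted p 0.00192).

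Of 12 genes that make and modify heparan sulphate, the co-receptor of FGF ligands, all 12 were tested, 4 higher and 8 lower, between -0.12 and 0.06 on the log2 scale. Sulf2, a sulphatase that edits the chains outside the cell, had a fold change of -0.11 on the log2 scale (edgeR adjusted p 0.323) and Extl3, which starts them, at -0.05 (edgeR adjusted p 0.632). Ndst1, which removes acetyl groups and adds sulphate, was at 181 ± 9.45 CPM and 167 ± 6.22 CPM (SD, n = 3 each), which is -0.12 on the log2 scale (edgeR adjusted p 0.23). Groups did not overlap for 3 of the 12, all lower, with Extl3 and Ndst1 among them, beside 9.3% of all genes tested.

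**Figure D5:**
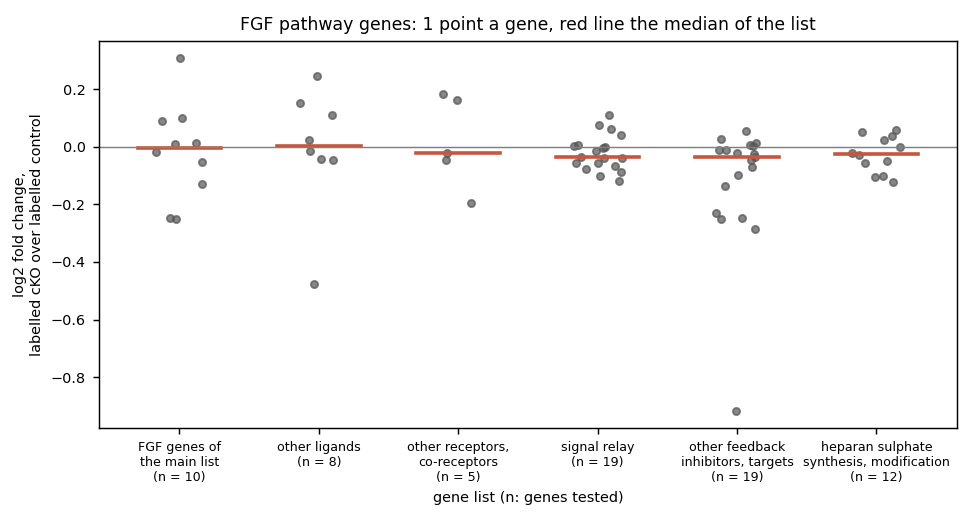
Log2 fold change, labelled Foxp1 cKO over labelled control, of every tested FGF pathway gene by list, 1 point a gene, with the median of each list in red. List medians lie between -0.03 and 0.00, and no gene passed the edgeR adjusted p of 0.05; the lowest point, at -0.92, is Fos, which was under 1 CPM in every library.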

How the data were processed

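Reads per gene were counted in 6 retina libraries, 3 per labelled genotype, each from the pooled left and right retina of an animal. The submitters' processing notes name cutadapt 2.8, STAR 2.7.6a, featureCounts 1.5.1, DESeq2 1.32.0 and mm10. No source used here gives their settings or says whether strand was used, so genes that overlap on either strand have uncertain values. The count table holds the authors' raw whole-number counts, per its header. The authors' deposited comparison gives, per the file headers, mean normalized counts (signal), log2 fold changes and standard errors, a test statistic (score), and raw and adjusted p-values (each a p-value of the authors), all printed as deposited.

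Depth ran from 23707761 to 25714620 counts. Columns were matched through the sample descriptions. Chi-square over degrees of freedom was 7.39 to 12.46 for pairs within a group, so none of these 6 pairs was a duplicate; pairs across groups were not compared. Positions and exon lengths are from GENCODE M21. Genotypes were compared in edgeR 4.0.16 (R 4.3.3) after TMM and filterByExpr, genotype alone, a robust quasi-likelihood fit and Benjamini-Hochberg adjustment over 17275 genes at 0.05. CPM use TMM-scaled sizes. Standard errors were derived from each F statistic, and intervals are 95%. Alternatives were other normalizations, filters and tools (DESeq2 1.42.0, limma 3.58.1), a replicate block, sex covariates, removal of the exon length trend (lowess, span 0.3) and left-out libraries.

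Genes and lists were chosen with earlier results of these data known. All 10 FGF genes are named, and, of the other pathway genes, any past the threshold and the 3 of each list with the highest CPM per kilobase. Fgf8, Fgf20, Fgfr4, Flrt3, Braf, Ptpn11, Sos1, Nf1, Cbl, Kdr, Fos and the neighbours of Fgf3 were chosen after their values were seen. A retinal progenitor marker of the lists is not reported here.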

Additional observations from a re-analysis of the deposited data

How the results depend on the processing

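The number of genes past the edgeR adjusted p of 0.05, 135 with all 6 libraries, was 742 with no filter on low counts, 75 with a filter at a mean of 1 CPM, 588 with DESeq2, 13 with limma-voom and 38 with the exon length trend removed. It was 19 to 778 with each library left out, 34, 21 and 778 without control 1, 2 and 3 and 361, 19 and 27 without cKO 1, 2 and 3, and 9 without both libraries numbered 2, whose sex-linked genes go against the labels. With the labelled sexes exchanged between groups as a covariate, chosen after seeing the data, it was 746 with edgeR and 699 with DESeq2. The causes were not tested. No pairing of the libraries by replicate number is stated. Deviations from the group means correlated at 0.0853, -0.0515 and 0.1992 for libraries numbered 1, 2 and 3. The value for number 3 was the highest of all pairs across groups, followed by control 1 with cKO 2 at 0.1721. Deviations from a mean of 3 libraries constrain each other, so these values cannot decide whether the numbers pair the libraries. With the number as a replicate block 1065 genes passed, Fgf3 (log2 fold change 0.31, edgeR adjusted p 0.0474), Nf1 (0.011) and Cbl (0.00472) among them. Fgf9, Fgf15, Fgfr1, Fgfr2, Fgfr3 and Dusp6 kept their sign and did not pass in any of 18 alternatives that gave an adjusted p; for Fgfr2, Fgfr3 and Spry1 DESeq2 gave none. Single libraries moved their size: Dusp6 was 0.051 without cKO 1 and 0.169 without cKO 3, Fgf15 0.04 without control 2 and 0.136 without control 3, Fgfr3 -0.399 without cKO 1, -0.145 without control 1 and -0.139 without cKO 3, and Fgfr1 -0.083 without cKO 3. Flrt1 passed without control 3 (edgeR adjusted p 0.0202), and Ndst1 (0.0335) and Sulf2 (0.0492) passed in DESeq2 with the exchanged sexes. The genes that changed sign lay close to 0 with all 6 libraries. With each library left out, Spry1 ranged from -0.117 to 0.098, Spry2 from -0.017 to 0.04, Etv5 from -0.06 to 0.018, Fgf11 from -0.054 to 0.036, Fgfrl1 from -0.084 to 0.004, Flrt2 from -0.064 to 0.023, Mapk3 from -0.037 to 0.039, Spred1 from -0.051 to 0.002, Dusp4 from -0.031 to 0.055 and Ccnd1 from -0.032 to 0.001. With the length trend removed Spry1 was at -0.023, Spry2 at -0.048, Flrt2 at 0.021, Spred1 at 0.006 and Dusp4 at -0.034. With labelled sex as a covariate Etv5 was at 0.013 and Flrt2 at 0.004. Without both libraries numbered 2, Etv5 was at 0.013, Fgf11 at 0.062, Fgf12 at 0.016, Fgf13 at -0.004 and Dusp4 at -0.036. With the exchanged sexes, edgeR put Spry1 at -0.012, Fgf11 at 0.015 and Dusp4 at -0.011, and DESeq2 put them at -0.013, 0.014 and -0.012. Mapk3 was at 0.004 with upper quartile normalization, 0.001 with no filter, 0.003 with the filter at 1 CPM, 0.001 with limma-voom and 0.0 with the replicate block.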

Other observations

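Fgf3 and Fgf15 are neighbours on chromosome 7. The start of Fgf15 lies 52095 bases past the end of Fgf3, on the same strand. Within 300000 bases on either side, 9 genes were tested, Fgf3 and Fgf15 included, and none passed the edgeR adjusted p of 0.05. Ano1, a chloride channel gene on the other side of Fgf3, was at a log2 fold change of -0.04 (standard error 0.05) and Ccnd1, beyond Fgf15, at -0.01 (standard error 0.05), beside 0.31 (standard error 0.07) for Fgf3 and 0.09 (standard error 0.05) for Fgf15. The gene models of Gm26793 and Gm39119 overlap that of Fgf15 on the other strand. Gm26793 was at 2.65 CPM in the controls and 3.10 CPM in the libraries labelled cKO, beside 787 to 911 CPM for Fgf15. How reads in the shared stretches were counted is not known, so these levels do not show what the overlap does to Fgf15. Per kilobase, the ratio of Fgf15 to Fgf3 was 10.2, 11.2 and 10.3 in control 1 to 3 and 8.74, 8.99 and 9.47 in cKO 1 to 3, with no overlap of the groups.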
